A study of Mus musculus with 6 samples.

Results

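Cytosolic ribosomal protein genes encode the protein parts of the large and the small subunit of the ribosome that translates nuclear messages. In mouse pancreatic tumour organoids they were taken by symbol, as protein-coding genes named Rpsa, Rplp0, Rplp1 or Rplp2, or Rpl or Rps followed by a digit, without the Rps6k kinases and without symbols that hold -ps. A mean of at least 20 CPM (a gene's share of a library's counts times 1000000) over the 6 libraries was also required. Of the 54453 gene identifiers measured, 86 matched the symbols. Of these, 81 above the minimum were counted as ribosomal protein genes by symbol, 49 under the large and 32 under the small subunit. Whether the product of each is part of the mature ribosome was not checked. One further match, Rps19bp1, encodes a protein that binds Rps19 and no ribosomal protein. It stood just inside the minimum with a mean of 29.7 CPM and was counted apart. The lowest members were Rpl12 with 81.4 CPM and Rps27l with 93.0 CPM. Just outside stood Rps27 with a mean of 6.03 CPM, and Rpl3l, Rpl10l and Rpl39l were at 0.0356, 0.00556 and 0 CPM. The rule used symbols and measured counts and no measured response to the hairpins, though it was set with earlier results of these data known. All 81 members passed the filter on low counts with between 2246 and 103575 estimated counts in every library.

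The cultures came from 3 organoid lines, T91, T113 and T118, grown in Matrigel from mouse pancreatic ductal tumours of the KPC family, with the genotype given as KPF/FC, letters that no label explains. Each line was sampled once with the short hairpin RNA #5523 against Scrib, which encodes a scaffold protein of epithelial cell polarity, and once with a control hairpin against Renilla luciferase. There were thus 3 libraries with the Scrib hairpin and 3 with the Renilla hairpin. Both cultures of a line had the same sex and passage number: T91 was female at passage 10, T113 male at passage 13 and T118 male at passage 11. One label has the hairpins brought in by virus, and the series text by transfected plasmids. With 1 culture per line and hairpin, and 1 hairpin sequence against Scrib, p-values cover these 6 cultures only. They set a change against the spread left after terms for line and hairpin, steadied by the spread of other genes. Scrib itself had 29.7, 34.99 and 30.0 CPM in Scrib shRNA cultures of T91, T113 and T118, against 177, 157 and 158 CPM in their Renilla shRNA cultures. Every Scrib shRNA culture was below every Renilla shRNA culture, with a log2 fold change of -2.38 ± 0.12 (SE) and an adjusted p of 0.00582 in edgeR's quasi-likelihood test. Summed epithelial markers (8 of 8 detected) ran from 6397 to 8129 CPM with the Scrib hairpin and from 7253 to 9990.2 CPM with the Renilla hairpin. Library totals ran from 24035559 to 36235773 estimated counts.

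Each ribosome holds these proteins in nearly equal number, and their messages are among the most abundant in growing cells and tend to be set together. In mammals most of these messages begin with a cytosine followed by a run of pyrimidines, the terminal oligopyrimidine or TOP motif, which ties their translation to growth signalling through mTOR. Myc and ETS family factors are known to act on many of these genes, and a high output of ribosomes is a common feature of growing tumour cells. The starts of Rpl35, the member of smallest p below, and Rps6, whose protein is the standard phosphorylation readout of mTOR signalling, show the motif. Each sequence runs from 30 bases before the RefSeq start to 20 bases from it on GRCm38.p6, with the unbroken pyrimidine run at the start in capitals. Rpl35 lies at chr2:39005112-39005161, minus strand, and Rps6 at chr4:86857348-86857397, minus strand.
Rpl35: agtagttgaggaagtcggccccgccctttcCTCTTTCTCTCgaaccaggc
Rps6: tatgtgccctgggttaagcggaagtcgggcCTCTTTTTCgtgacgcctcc
The run was 11 bases long in Rpl35 and 9 in Rps6. RefSeq start windows (250 bases before to 50 after the start) were at hand for 61 of the 81 members. A gene with several starts was counted when any of its windows matched. A cytosine at the annotated start followed by pyrimidines to a run of at least 5 stood in 13 of the 61 (21.3%). It stood in 3.01% of all 27025 genes with windows and in 2.9% of the other genes tested. The letters CCGGAAG, the core bound by ETS family factors, stood on either strand of the window in 25 of the 61 (41%). They stood in 9.93% of all genes with windows and in 20.6% of the other genes tested. TATAAA, the TATA box, stood on either strand in 7 of the 61 (11.5%). It stood in 15.7% of all genes with windows and in 8.7% of the other genes tested. These letter matches are descriptions, a pyrimidine run can overlap the reverse complement of CCGGAAG, and an annotated start that is a few bases off would hide a run.

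As listed, levels differed widely between the members. Scaled per kilobase of annotated transcript, as the mean over the 6 libraries, the highest small subunit genes were Rps2, a protein of the messenger entry channel, with 3131 CPM per kb, and Rps12 with 2073. The highest large subunit genes were Rpl41, the smallest protein of the ribosome, with 2628 CPM per kb, and the stalk genes Rplp1 and Rplp0 with 2439 and 2117. At the low end of the large subunit stood Rpl5, Rpl12 and Rpl7l1 with 50.8, 65.7 and 122 CPM per kb. At the low end of the small subunit stood Rps20, Rps27l and Rps23 with 165, 187 and 344 CPM per kb. The order moves with the annotation, and the transcript used for Rps20 has 3706 bases. Most counts of the Rpl5, Rpl12 and Rps23 families were listed on near-identical copies, described further on, so the low levels of these genes are uncertain.

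With the Scrib hairpin, the members as a group were slightly higher than with the Renilla hairpin, and none passed the test. The median log2 fold change was 0.12 over the 49 large subunit genes (range 0.02 to 0.19) and 0.12 over the 32 small subunit genes (range 0.09 to 0.18). Over all 14169 genes tested the median was -0.01. In fold terms the medians of both subunits come to 1.09 and 1.09. All 81 members had a fold change above 0, as did 48.2% of all genes tested. No member passed an adjusted p of 0.05 in edgeR's quasi-likelihood test with a term for line (Benjamini-Hochberg over all genes tested), and over all genes 0.00706% did, which is Scrib alone. DESeq2 and limma-voom called no member either. At an unadjusted p under 0.05 there was again no member, against 6.61% of all genes. The median standard error of a member was 0.10, about the size of the median change, and every 95% interval held 0, the widest running from -0.28 to 0.52. Members share the same 6 libraries, so their common sign is not 81 separate observations.

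The size and sign of this difference were not alike in the 3 lines, which was not tested since each has 1 pair of cultures. Within T91, every large subunit gene (49 of 49) and every small subunit gene (32 of 32) was higher in the Scrib shRNA culture, with median log2 ratios of 0.30 and 0.31, beside 50.1% of all genes above 0. Within T113, 46 of 49 and 31 of 32 were higher, with medians of 0.08 and 0.09, beside 49.4% of all genes. In T118 only 14 of 49 and 5 of 32 were higher, with medians of -0.03 and -0.04, beside 49.7% of all genes. The median ratio of all genes was 0.000546, -0.00290 and -0.00211 across T91, T113 and T118. A ratio above 0 in all 3 lines was found for 16 of 81 members (12 large and 4 small), that is for 19.8% of the members beside 14.7% of all genes tested. This count takes each gene without its near-identical copies, described further on. Without T91 the medians of the fit were 0.02 for the large and 0.02 for the small subunit, and 18 members had a fold change below 0.

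**Figure D1:**
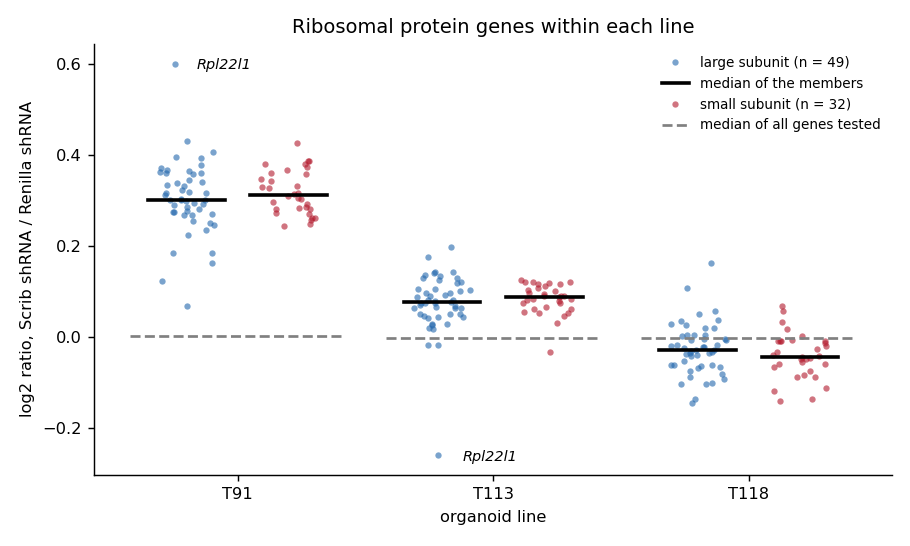
Log2 ratio of CPM, Scrib shRNA over Renilla shRNA, of each member within each organoid line (vertical axis, each point 1 gene, blue for the large and red for the small subunit). Black bars mark the median of the members and dashed lines the median of all genes tested: the members lie above it in T91, mostly above it in T113 and mostly below it in T118, and Rpl22l1 stands apart in T91 and T113.

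The share of all counts held by the members was read off the counts without scaling. In T91 the 81 genes took 7.26% of the counts with the Scrib hairpin and 5.91% with the Renilla hairpin. In T113 they took 6.07% with the Scrib hairpin and 5.69% with the Renilla hairpin, and in T118 5.80% with the Scrib hairpin and 5.94% with the Renilla hairpin. The Scrib shRNA culture of T91 stood alone, and the other 5 libraries lay between 5.69% and 6.07%. Averaged over lines the share was 6.38% ± 0.776 with the Scrib hairpin and 5.85% ± 0.138 with the Renilla hairpin (SD, n = 3 each). Paired within line, the log2 ratio of the share was 0.30, 0.09 and -0.03 in T91, T113 and T118, so neither its size nor its sign was shared by all lines. Both subunits moved together: large subunit counts were 1.35 to 1.37 times small subunit counts in every library. In bulk samples like these, more cells of a kind and more RNA per cell cannot be told apart.

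**Figure D2:**
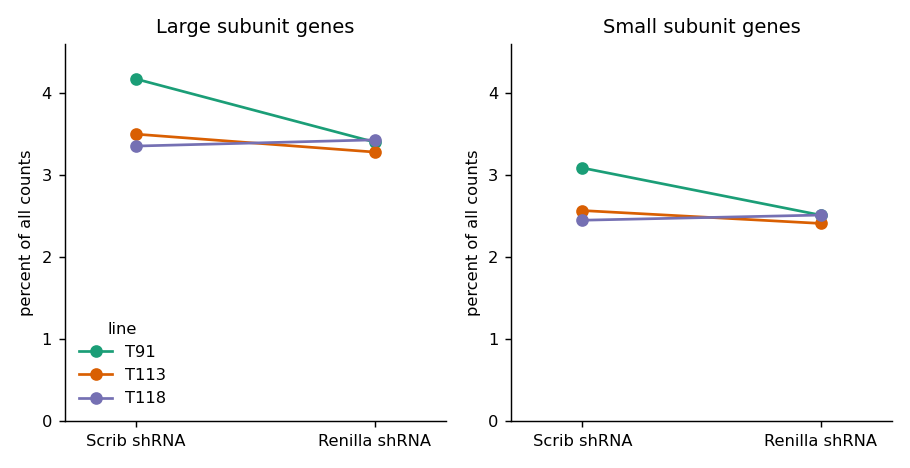
Percent of all estimated counts of a library held by large subunit genes (left) and small subunit genes (right), for the Scrib shRNA and the Renilla shRNA culture of each line, joined by a line. In T91 the Scrib shRNA culture stood at 4.17% and 3.09%, above the Renilla shRNA culture at 3.40% and 2.51%, while the other lines differed little.

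Among large subunit genes, Rpl35, whose protein sits near the exit of the peptide tunnel (ENSMUSG00000062997, chr2:39001580-39005624, minus strand), had the smallest p, though more counts were listed on its near-copies than on the gene. Rpl35 had 310.1, 239.7 and 254 CPM in Scrib shRNA cultures of T91, T113 and T118, against 246, 212 and 244 CPM in their Renilla shRNA cultures. It was higher with the Scrib hairpin in every line, yet the T113 Scrib culture lay below the T91 Renilla culture, so the groups overlapped. Its log2 fold change was 0.19 ± 0.10 (SE), with an unadjusted p of 0.0968 and an adjusted p of 0.78 in edgeR. Rpl11 and Rpl5 join the 5S ribosomal RNA in a particle that can also bind and block Mdm2, the brake on p53. Rpl11 had 622, 479 and 509.7 CPM under the Scrib hairpin and 484, 449 and 492 CPM under the Renilla hairpin (T91, T113 and T118 in each), and a log2 fold change of 0.17 ± 0.10 (SE). Rpl5 had 106, 106 and 105 CPM under the Scrib hairpin and 97.0, 104 and 105 CPM under the Renilla hairpin (T91, T113 and T118 in each), and a log2 fold change of 0.05 ± 0.09 (SE). The T91 Scrib culture was the highest for Rpl11, whereas Rpl5 as listed hardly varied among the 6 libraries. Most counts of the Rpl5 family were listed on near-copies, and this contrast was not kept with copies added. The log2 ratios in T91, T113 and T118 were then 0.30, 0.04 and 0.00097 for Rpl5, and 0.32, 0.13 and -0.0022 for Rpl11. Rpl27, a further large subunit protein, had within-line log2 ratios of 0.28, 0.20 and 0.0035 in T91, T113 and T118, and Rpl14 of 0.30, 0.13 and 0.04. Rpl3, which lies near the peptidyl transferase centre, had ratios of 0.25, 0.05 and 0.0041, and Rpl38, known in mice for its part in the translation of Hox messages, of 0.25, 0.14 and -0.03.

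The stalk proteins Rplp0, Rplp1 and Rplp2 recruit elongation factors to the ribosome. Rplp0 had 3450.2, 2732 and 2837 CPM in Scrib shRNA cultures of T91, T113 and T118, against 2849, 2487 and 2896 CPM in their Renilla shRNA cultures. Rplp1 had 1431, 1129.6 and 1285 CPM under the Scrib hairpin and 1089, 1062 and 1307 CPM under the Renilla hairpin (T91, T113 and T118 in each). The T91 Scrib culture was again the highest for both, and in T118 both were slightly lower with the Scrib hairpin. Their log2 fold changes were 0.13 ± 0.10 (SE) and 0.15 ± 0.11 (SE), and that of Rplp2 was 0.11 ± 0.11 (SE). Rpl12, which forms the base of the stalk, had ratios of 0.18, 0.06 and 0.11 in T91, T113 and T118, and Rpl41 of 0.33, 0.13 and -0.06. Most counts of the Rpl12 family were listed on near-copies. With these added, the ratios of Rpl12 were 0.27, 0.11 and -0.02, so its rise in T118 was not kept.

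Among small subunit genes, Rps27l (ENSMUSG00000036781, chr9:66946086-66949516, plus strand), a paralog of Rps27 that p53 is known to induce, had the smallest p. Rps27l had 112, 91.4 and 93.3 CPM in Scrib shRNA cultures of T91, T113 and T118, against 87.7, 84.0 and 89.7 CPM in their Renilla shRNA cultures. Every Scrib shRNA culture was above every Renilla shRNA culture, but the margin was narrow in T113 and T118. Its log2 fold change was 0.18 ± 0.10 (SE), with an unadjusted p of 0.127 and an adjusted p of 0.783 in edgeR. Rps6 had 1058, 845 and 852 CPM under the Scrib hairpin and 856, 784 and 888 CPM under the Renilla hairpin (T91, T113 and T118 in each), with a log2 fold change of 0.12 ± 0.11 (SE). Rps19, mutated in people with Diamond-Blackfan anaemia, had 785, 596 and 590.2 CPM under the Scrib hairpin and 609, 547 and 594 CPM under the Renilla hairpin (T91, T113 and T118 in each), with a log2 fold change of 0.16 ± 0.11 (SE). For both genes the T91 Scrib culture was the highest library and T118 was lower with the Scrib hairpin. Rps24, another Diamond-Blackfan anaemia gene, had ratios of 0.39, 0.08 and 0.02 in T91, T113 and T118. Rps27a, made as a fusion with ubiquitin, had ratios of 0.33, 0.06 and 0.03, and Rpsa, a protein of the small subunit that is also known as a laminin receptor, of 0.32, 0.08 and -0.03. The messenger channel proteins Rps3 and Rps2 had ratios of 0.26, 0.04 and -0.01 and of 0.28, 0.09 and -0.01. Rps12 and Rps20 lay between 0.35 and 0.38 in T91 and between -0.09 and -0.05 in T118.

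Few members left the common course. Within a line the middle 50% of the members spanned 0.0837, 0.0545 and 0.0577 on the log2 ratio scale across T91, T113 and T118. All genes tested, which include genes of low counts, spanned 0.433, 0.324 and 0.472. Other genes at a mean of 20 CPM or more spanned 0.339, 0.239 and 0.337. Across the 6 libraries, 73 of the 81 members had a standard deviation of log2 CPM below 0.177, the median of the 7655 other genes at a mean of 20 CPM or more. Those other genes were not matched to the members in level or transcript length, and the part of these in the contrast was not tested. Rpl22l1, the paralog of Rpl22 and known in mice to be held down by it, departed the most. Rpl22l1 had 130.1, 100.2 and 101 CPM in Scrib shRNA cultures of T91, T113 and T118, against 85.8, 120.1 and 99.1 CPM in their Renilla shRNA cultures. The Scrib shRNA culture was thus higher in T91, lower in T113 and near its Renilla shRNA culture in T118, and the fitted log2 fold change of 0.12 ± 0.17 (SE) averages these opposite values. Rpl22 itself had ratios of 0.29, 0.02 and -0.07 in T91, T113 and T118. Rpl7l1, related in sequence to Rpl7, had ratios of 0.18, 0.12 and 0.16, all above 0, where Rpl7 had 0.23, 0.07 and -0.01. Rpl7l1 had 179, 144 and 183 CPM under the Scrib hairpin and 158, 132 and 163 CPM under the Renilla hairpin (T91, T113 and T118 in each), so the T113 cultures were the lowest of each hairpin and the groups overlapped. Its log2 fold change was 0.16 ± 0.09 (SE) (edgeR unadjusted p of 0.121, adjusted 0.783). Per kilobase, Rpl7l1 stood at 122 CPM and Rpl7 at 1048, and Rpl22l1 at 192 and Rpl22 at 673. Rpl36al and Rpl36a were closer in level, 403 and 478 CPM per kb, with ratios of 0.26, 0.12 and -0.06 and of 0.31, 0.08 and -0.10 in T91, T113 and T118. Rpl39, of the peptide tunnel, and the X-linked Rps4x had ratios of 0.37, -0.02 and -0.02 and of 0.31, 0.03 and -0.05. The testis and muscle paralogs Rpl10l, Rpl39l and Rpl3l were at or near 0 in every library.

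Ribosomal protein genes have many reverse-transcribed copies in the mouse genome, and the deposited values are estimates that share reads among similar transcripts. For 70 of the 81 members, other annotated genes (292 in all) held at least 50% of the 31-base words of the member's coding sequence. These near-copies took a median of 0.583% of a member's combined counts, but over 10% for 24 members and over 50% for 7. The 7 were Rpl12 (93.0%), Rpl5 (92.0%), Rpl10 (85.9%), Rpl27a (62.5%), Rpl35 (53.3%), Rps23 (53.1%) and Rpl27 (52.5%). Gm15500, annotated as a transcribed processed pseudogene on chromosome 7, was listed at 1196 CPM beside 104 CPM for Rpl5. Gm10275, another on chromosome 10, was listed at 1077 CPM beside 81.4 CPM for Rpl12. Rpl10, which joins the large subunit late in its maturation, has 7 exons on chrX:74270812-74273135 (plus strand) and 172 CPM, and the single-exon Rpl10-ps3 on chr9:50344201-50344968 (minus strand), with the same 642 coding bases, had 1045 CPM. Which of a pair was transcribed cannot be told from these estimates, so values of these members alone are uncertain.

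**Figure D3:**
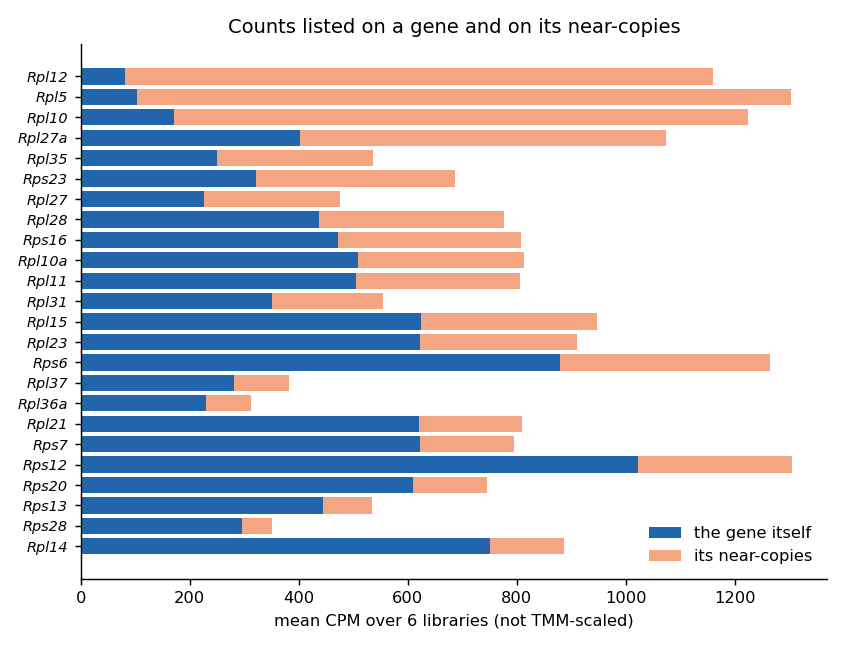
Mean CPM over the 6 libraries (horizontal axis, not TMM-scaled) listed on each member itself (blue) and on its near-copies (orange), for the 24 members with over 10% of their combined counts on copies. Rpl12, Rpl5 and Rpl10 have most of their combined counts on copies.

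Rpl10 and Rpl5, the members with the smallest ratios in T91, were among these 7, and with the copies added their ratios lay near the median of the members. In T91 the log2 ratio was 0.07 for Rpl10 alone and 0.29 with its copies. For Rpl5 it was 0.12 alone and 0.30 with copies, and for Rpl12 0.18 alone and 0.27 with copies. Rpl22l1 stayed at 0.60 in T91. With copies added, all families lay between 0.18 and 0.60 in T91, and the median log2 fold changes of the fit were 0.12 for the large and 0.12 for the small subunit.

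Rps27, a zinc-binding protein of the small subunit, stood outside the minimum of 20 CPM, and its copy Rps27rt, annotated as protein-coding, is among the members. Rps27 has 4 exons on chr3:90212522-90213651 (minus strand) and Rps27rt is a single exon on chr9:114982366-114982739 (minus strand), and their 252 coding bases are identical. Rps27rt had 418, 353 and 344 CPM under the Scrib hairpin and 349, 324 and 355 CPM under the Renilla hairpin (T91, T113 and T118 in each). Rps27 had 8.12, 3.42 and 6.44 CPM under the Scrib hairpin and 6.03, 7.46 and 4.85 CPM under the Renilla hairpin (T91, T113 and T118 in each). As listed, Rps27rt followed the other members, while Rps27 was higher with the Scrib hairpin in T91 and T118 and lower in T113, on low counts. With identical coding bases, the split of reads between them is an estimate, so the values of Rps27 alone are uncertain. Added together, the pair had log2 ratios of 0.26, 0.10 and -0.04 in T91, T113 and T118. Their RefSeq starts on GRCm38.p6, again from 30 bases before the start to 20 from it with the pyrimidine run in capitals, are shown because the loci differ before the start. Rps27 lies at chr3:90213629-90213678, minus strand, and Rps27rt at chr9:114982720-114982769, minus strand.
Rps27: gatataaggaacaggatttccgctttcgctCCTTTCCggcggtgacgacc
Rps27rt: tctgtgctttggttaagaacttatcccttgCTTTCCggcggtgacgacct
Set side by side with an offset of 1 base, 39 of 40 bases matched from the start onward and 8 of 40 before it. The similarity thus begins at the start of the Rps27 message.

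Shorter genes in general were higher with the Scrib hairpin in T91, and most members are short. Of the 81 members, 63 have a transcript under 1 kb. Their median log2 ratios were 0.31, 0.09 and -0.04 in T91, T113 and T118, and those of the 1994 other genes under 1 kb were 0.21, 0.01 and -0.07. The 3478 other genes over 4 kb had medians of -0.25, -0.03 and 0.07. Across 14067 genes, which are not independent, the ratio correlated with transcript length at Spearman rho values of -0.46, -0.06 and 0.12 across T91, T113 and T118. The members were thus above other short genes in each line, and opposite in sign to the longest genes in all of them. With offsets that level transcript length in each library, a setting chosen after seeing the data, the median log2 fold changes were 0.07 for the large and 0.07 for the small subunit, and 80 members stayed above 0. Of 40 nuclear genes of oxidative phosphorylation, all 40 were higher in T91, 19 in T113 and 1 in T118, beside 50.1%, 49.4% and 49.7% of all genes. Their list medians were 0.31, -0.0003 and -0.22, so their values were like those of the members in T91 and lower in the other lines. The part of transcript length in the T91 values was not tested further.

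**Figure D4:**
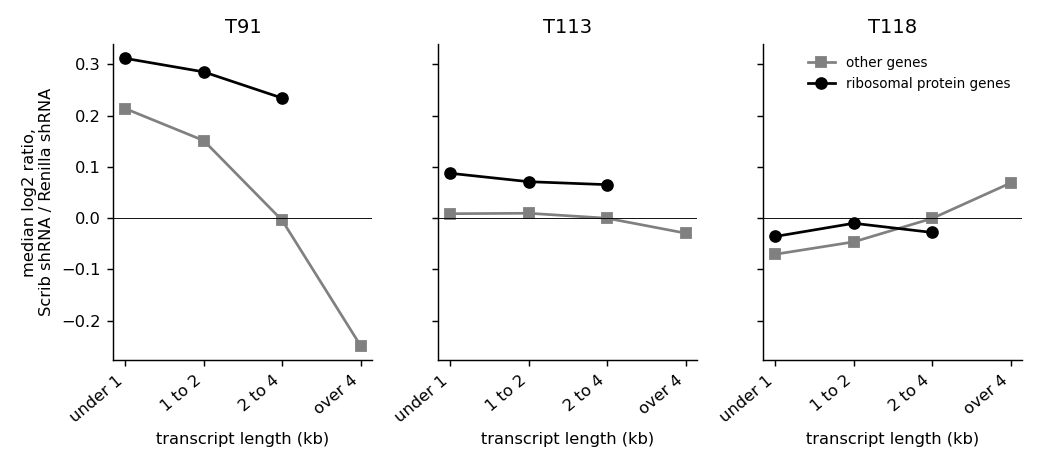
Median log2 ratio, Scrib shRNA over Renilla shRNA, by annotated transcript length (horizontal axis, kb) in each line, for members (black circles) and for the other genes tested (grey squares). In T91 the other genes ran from 0.21 under 1 kb to -0.25 over 4 kb, and the members lay above them at each length they reach.

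Members with and without a pyrimidine run at their annotated start had like ratios. Since a start that is a few bases off would hide a run, members with the TOP motif can stand in both sets. The values therefore cannot show whether the motif made a difference. In T91 the median ratio was 0.31 for the 13 members with the run at their annotated start and 0.30 for the 48 without it. The 289 other genes with such a run had a median of 0.05 in T91, and those without it of -0.00065.

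Between lines, with both hairpins in the fit, no member passed the edgeR test of the line terms (Benjamini-Hochberg over all genes), where 14% of all genes tested did. At an unadjusted p under 0.05 there was 1 member, Rpl7l1, beside 29.5% of all genes. After TMM scaling the members were mostly lower in T113. Relative to the mean of T91 and T118, both hairpins averaged, the median log2 difference was -0.14 over the 79 members outside chromosome 18. Without scaling, the members took 5.69% of the counts in T113, 5.94% in T118 and 5.91% in T91 with the Renilla hairpin. With the Scrib hairpin they took 6.07% in T113, 5.80% in T118 and 7.26% in T91. There T113 was not below T118, and the outlying T91 Scrib culture raises the mean it is set against. The 2 members on chromosome 18, Rps14 (chr18:60747098-60778546, plus strand; its loss in people belongs to a deletion syndrome of the bone marrow) and Rpl17 (chr18:74998558-75003381, plus strand, at the tunnel exit), were instead higher in T113, by 0.25 and 0.25. Among the other members the highest such value was 0.09. Rps14 had 694, 714 and 529.9 CPM under the Scrib hairpin and 569, 671 and 549 CPM under the Renilla hairpin (T91, T113 and T118 in each). Rpl17 had 938, 941 and 722 CPM under the Scrib hairpin and 739, 923 and 754 CPM under the Renilla hairpin (T91, T113 and T118 in each). In the Renilla shRNA cultures T113 was the highest line for both genes, and in the Scrib shRNA cultures T113 and T91 were close. The 205 other genes of at least 20 CPM on chromosome 18 had a median of 0.38 on the same scale, against -0.06 to 0.00 on the 18 other autosomes. The adjusted p of the line terms in edgeR was 0.206 for Rps14 and 0.276 for Rpl17. Both passed with length offsets (0.0339 and 0.0408), and without T91 (0.0167 and 0.0194), where Rpl7l1 also passed with 0.0306, being lowest in T113. In these settings 2 and 3 of the 81 members passed, beside 17.5% of all genes with length offsets and 23% without T91.

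**Figure D5:**
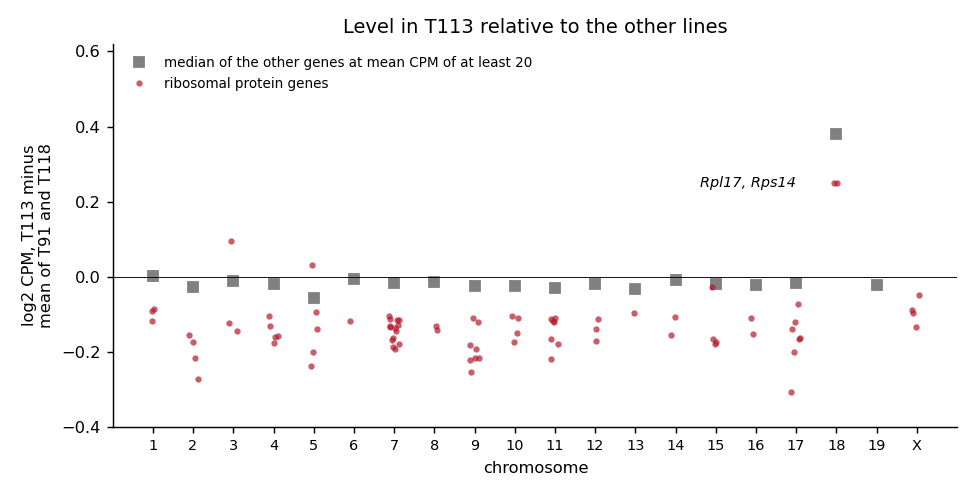
Log2 CPM in T113 minus the mean of T91 and T118, both hairpins averaged, by chromosome (horizontal axis), for each member (red points) and as the median of the other genes at a mean of at least 20 CPM (grey squares). Rpl17 and Rps14 at 0.25 stand with the raised median of chromosome 18 at 0.38.

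Other genes of ribosome production also mostly had fold changes above 0, though their within-line values were not always like those of the members. Rack1 and Fau encode ribosomal proteins but carry other symbols. Rack1 had a log2 fold change of 0.11 ± 0.10 (SE) and ratios of 0.24, 0.09 and -0.01 in T91, T113 and T118, and Fau had one of 0.03 ± 0.12 (SE) and ratios of 0.27, 0.09 and -0.26. Of 40 ribosome biogenesis genes, all 40 had a fold change above 0, with a median of 0.19, beside 48.2% of all genes. Their line medians were -0.05, 0.27 and 0.38 in T91, T113 and T118, lowest where the ribosomal protein genes were highest. None was called, and 4 had an unadjusted p under 0.05, beside 6.61% of all genes. Nhp2, Nop16 and Fbl, nucleolar proteins of ribosomal RNA processing and assembly, had log2 fold changes of 0.27 ± 0.09 (SE), 0.24 ± 0.09 (SE) and 0.22 ± 0.09 (SE). Nhp2 had 171, 134 and 181 CPM under the Scrib hairpin and 145, 107 and 154 CPM under the Renilla hairpin (T91, T113 and T118 in each). It was higher with the Scrib hairpin in each line.

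The 9 import factors and chaperones of ribosomal proteins all had fold changes above 0, led by Tsr2, a chaperone of Rps26, with 0.23 ± 0.11 (SE), and their line medians were -0.05, 0.18 and 0.35 in T91, T113 and T118. Among 18 translation genes known to carry the TOP motif 17 were above 0, with a median of 0.09 and line medians of 0.15, 0.05 and 0.08. Hnrnpa1, Eef1d and Naca had the smallest p of these, with log2 fold changes of 0.19, 0.17 and 0.14. The 9 host genes of small nucleolar RNAs with this motif were all above 0, with a median of 0.20 and line medians of 0.26, 0.15 and 0.22. Snhg3, Snhg5 and Snhg12 had log2 fold changes of 0.33 ± 0.11 (SE), 0.25 ± 0.09 (SE) and 0.25 ± 0.11 (SE). Of 78 mitochondrial ribosomal proteins 74 were above 0, with a median of 0.12 and line medians of 0.21, 0.12 and 0.04. Beside the counts of these lists, 48.2% of all genes tested had a fold change above 0. None of the genes in these lists passed the adjusted threshold in edgeR.

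Among 17 tested genes that control ribosome production through Myc and mTOR, 10 were above 0 and 7 below, beside 48.2% of all genes above 0. Mxd4, which opposes Myc at its target genes, had the smallest p. Mxd4 had 9.97, 10.4 and 9.19 CPM under the Scrib hairpin and 10.997, 15.5 and 21.1 CPM under the Renilla hairpin (T91, T113 and T118 in each). It was lower with the Scrib hairpin in every line, most in T118, with a log2 fold change of -0.64 ± 0.21 (SE) and an edgeR adjusted p of 0.744. Myc had ratios of 0.29, 0.40 and 0.02 in T91, T113 and T118, with a log2 fold change of 0.24 ± 0.11 (SE) (adjusted p of 0.772), and Mnt, another Myc antagonist, had one of -0.18 ± 0.10 (SE). Of the 6 genes of the 5S particle and p53 list 2 were above 0, beside the same 48.2% of all genes. Cdkn1a, the cell cycle inhibitor induced by p53, had ratios of 0.14, -1.18 and -2.06, and Mdm4 of -0.60, -0.19 and 0.17. Neither passed the test.

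Of the marker lists of other cells, the Schwann and neural list had the highest sum, and it was of like size under both hairpins. It summed to 72.5 to 108 CPM with the Scrib hairpin and 75.5 to 104 CPM with the Renilla hairpin, nearly all of it from Mbp, which encodes a myelin protein, at 71.3 to 107 CPM with the Scrib and 74.7 to 103 CPM with the Renilla hairpin, while Sox10 was at 0 in every library. Of 9 fibroblast markers only Col1a1 and Col1a2 had enough counts to be tested, Lum was at 0 in every library, and the list summed to 1.44 to 7.78 CPM with the Scrib hairpin and 1.14 to 1.74 CPM with the Renilla hairpin. Col1a1 had 3.53, 0.781 and 1.02 CPM under the Scrib hairpin and 0.503, 0.485 and 0.444 CPM under the Renilla hairpin (T91, T113 and T118 in each), so it was highest in the T91 Scrib culture, the one with the highest ribosomal protein share. Its part in that share was not tested. Leukocyte markers summed to 2.35 to 5.95 CPM with the Scrib hairpin and 3.44 to 4.54 CPM with the Renilla hairpin, and acinar and endothelial markers to at most 1.57 CPM. Epithelial markers were lower with the Scrib hairpin for 6 of 8, where 48.2% of all genes were above 0. Their list medians were 0.15, -0.18 and -0.30 in T91, T113 and T118. Mitochondrial messages had list medians of 0.19, -0.50 and 0.22. Of 8 nuclear or unpolyadenylated RNAs 5 were tested, with list medians of 0.10, -0.09 and -0.73, lowest in T118. In T91, 3 of these 5 were higher with the Scrib hairpin, beside 50.1% of all genes, and Malat1, the one of smallest p, was not, with ratios of -0.80, 0.05 and -0.43. Their part in the ribosomal protein values was not tested.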

How the data were processed

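Gene expression was measured by sequencing messenger RNA libraries from 6 organoid cultures. Each library's deposited table holds estimated counts by Ensembl gene, not scaled for depth. The submitters' processing notes name Salmon 1.4.0, DESeq 2 and GRCm38. Transcript annotation and strand setting are not given in the sources here. After rounding, the counts were tested in R 4.3.3 with edgeR 4.0.16 (filterByExpr with a minimum count of 10, TMM scaling, robust quasi-likelihood F-test with terms for line and hairpin, two-sided). P-values were adjusted by Benjamini-Hochberg across 14169 genes, with a threshold of 0.05. CPM values use TMM-scaled library sizes, except shares, near-copy sums, sums of marker lists, the levels of Mbp and the CPM minimum. Log2 CPM values, for ratios within a line and standard deviations, had a prior count of 2.

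Both libraries of a pair come from the same line, and the deviations of its pair from the group means correlated at 0.621 to 0.666, so line was a term of the fit. Symbols came from GENCODE M21, which matched 54131 of the 54453 identifiers. Near-copies are other genes that hold at least 50% of a member's coding 31-base words. Transcript length is that of the principal transcript. Alternatives were DESeq2 1.42.0, limma-voom (limma 3.58.1), other scalings, filters and thresholds, pseudogene counts added, no line term and each line left out, and, chosen after seeing the data, length offsets and near-copy counts added. In simulated counts the fit was checked on known fold changes, which were larger than those of the members and had less spread than these data. The check thus does not cover changes of the size seen in the members.

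The members and the lists were chosen with earlier results of these data known. Named members are those of smallest p for hairpin or line, the highest and lowest per kilobase, paralogs and their parents, well-known members, those next to the CPM minimum and those with like signs in all lines. Of other lists up to 3 genes were named by p. A few genes within this rule are not reported here. Gm15500, Gm10275, Rps27rt, Rpl10-ps3, Rpl17, Rpl27a, Sox10 and Lum were named after their values were seen.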

Additional observations from a re-analysis of the deposited data

Results flagged for a closer look

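The median log2 ratio, Scrib shRNA over Renilla shRNA, of the large subunit genes was 0.331 higher in T91 than in T118, and that of the small subunit genes 0.356 higher. In T91 the medians of both subunits lay above 0 and in T118 below 0, which is what drew attention to them. The difference between these lines was not tested, since each line has 1 pair of cultures.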

How the results depend on the processing

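No member was called in any setting. Apart from the line left out and the length offsets, the median log2 fold changes lay between 0.0985 and 0.127, and without the line term (no replicate block) they were 0.124 for the large and 0.127 for the small subunit. Leaving out 1 line, they lay between 0.0200 and 0.194 (large) and between 0.0227 and 0.196 (small), lowest without T91. The line terms called 2 members with length offsets, beside 17.5% of all genes, and 0 to 3 when a line was left out, beside 8.43% to 23% of all genes. Rpl10 turned to -0.0239 with length offsets. Leaving out 1 line gave log2 fold changes from -0.0236 to 0.153 for Rpl22, -0.117 to 0.318 for Rpl22l1, -0.0103 to 0.194 for Rpl36a, -0.0172 to 0.180 for Rpl39, -0.0175 to 0.194 for Rplp2, -0.0132 to 0.218 for Rps12, -0.0117 to 0.205 for Rps23, -0.00745 to 0.170 for Rps4x and -0.357 to 0.422 for Rps27, and the cause was not tested. The log2 ratio of the share of counts, 0.118 on average, lay between 0.0290 and 0.194 when a line was left out. The line terms were not tested with DESeq2. Of the other comparisons of single genes across settings, 454 kept their direction and side of the threshold. Over all genes, 1 was called in the test used here, 63 with DESeq2, 8 with limma-voom and 64 without a filter. With 3 cultures per hairpin and a standard error near 0.1, changes of the size seen here could not be told from 0 for single genes.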
